A study of Mus musculus with 28 samples.

Results

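The Notch pathway genes described here are 10 genes chosen by symbol, namely Notch1, Notch2, Notch3, Dll1, Dll3, Jag1, Rbpj, Hes1, Hes5 and Hey1, out of 27179 genes annotated in the chromatin RNA table. They were joined by gene identifier across the whole-cell RNA-seq values, the chromatin RNA counts and the peak lists of the FACT subunits. A whole-cell value per library was listed for 9 of the 10, among 15384 genes with such values, and Hes5 had none.

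FACT is a histone chaperone made of SSRP1 and SUPT16, which takes nucleosomes apart and rebuilds them as RNA polymerase passes. All samples used here came from E14, a mouse embryonic stem cell (mESC) line grown in serum with leukaemia inhibitory factor (LIF, 10 ng/ml). The Ssrp1 knock-down (KD) group, 4 libraries, was transfected with a combination of shRNA vectors 1 and 2 against Ssrp1, and the control group, 4 libraries, received the control vector. Both groups were placed in puromycin at 2 µg/ml for 24 h, starting 48 h after transfection, and ERCC spike-in RNA was added to their extracts. Chromatin RNA, extracted from the chromatin fraction of E14 cells in the presence of α-amanitin, was sequenced in 2 libraries with no comparison group, and SSRP1 and SUPT16 ChIP-seq of untreated E14 cells gave 1 peak list each, called on 2 replicates together. The authors' table of early-stage neural progenitor cells (NPCs), differentiated with 1 µM retinoic acid for 4 d and then kept without LIF for 3 d, holds no value per library.

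Notch receptors are single-pass membrane proteins that are cut when a ligand of the Delta or Jagged family on a neighbouring cell binds them. The released intracellular domain enters the nucleus and joins Rbpj, which otherwise holds target genes in check through co-repressors, and the complex turns on genes of the Hes and Hey families. These encode transcriptional repressors that restrain proneural genes, and in the embryo Notch signalling between neighbours is known for keeping neural progenitors from differentiating too early.

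The sequences below carry the positions that the results refer to, read from RefSeq on GRCm38.p6, the assembly also called mm10. RefSeq promoter windows were matched for 8 of the 10 genes, in 10 windows, and the 250 bases before each start were searched on both strands for TGGGAA and GTGGGAA, the core and the longer form of the letters read by Rbpj, and for CACGTG and CACNAG, the E-box and N-box read by Hes and Hey proteins. The GTGGGAA motif contains the TGGGAA motif, so each of its matches counts for both. Over all 32851 windows, TGGGAA was found in 21.6%, GTGGGAA in 5.42%, CACGTG in 6.02% and CACNAG in 36.7%. The Hes5 window on chromosome 4, all of which lay within annotated exons, held 2 GTGGGAA matches in opposite orientations. Their first bases lay 226 and 83 bases before the start. Both are printed with their flanks and the 7 matching bases in capitals (chr4:154960686-154960714 and chr4:154960829-154960857, plus strand).
Hes5 distal match: gggcgagcgcgTTCCCACagcccggacat
Hes5 proximal match: ggccgccgagtGTGGGAAcggccgcggcg

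The Rbpj and Notch2 starts are shown because an SSRP1 peak covered both of them, and only bases outside annotated exons are printed (chr5:53590096-53590214 and chr3:98013288-98013537, plus strand). The first Rbpj window held 2 TGGGAA matches, 149 and 65 bases before its start. Capitals mark the former, and the latter lay outside the printed bases. A second, overlapping Rbpj window held that latter site again, 205 bases before its own start. Both of these RefSeq starts lie downstream of the start at position 53590215 used for the peaks. The Notch2 window held a CACNAG match and none of the other motifs. The 250 bases before the Notch2 start were 72% G or C, against a median of 52.4% over all windows.
Rbpj upstream: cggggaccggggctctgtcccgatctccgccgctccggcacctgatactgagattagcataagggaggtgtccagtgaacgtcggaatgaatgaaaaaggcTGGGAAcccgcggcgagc
Notch2 upstream: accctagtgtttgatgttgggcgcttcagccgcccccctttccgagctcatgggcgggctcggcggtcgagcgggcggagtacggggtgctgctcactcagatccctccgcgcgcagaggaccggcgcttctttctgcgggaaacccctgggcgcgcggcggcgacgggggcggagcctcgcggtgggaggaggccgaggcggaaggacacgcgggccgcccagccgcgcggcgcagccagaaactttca

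The Notch3 sequence is the whole of a SUPT16 peak that lay within an SSRP1 peak inside the gene, outside its exons and 732 bp downstream of its start (chr17:32165911-32166120, minus strand). Its capitals mark a CACGTG match, and 72.4% of its bases were G or C. The windows of Dll1, Dll3 and Jag1 held none of the 4 motifs, the Notch1 window held 1 CACNAG match and the Notch3 window 2. A match says only that the letters are present.
Notch3 shared peak: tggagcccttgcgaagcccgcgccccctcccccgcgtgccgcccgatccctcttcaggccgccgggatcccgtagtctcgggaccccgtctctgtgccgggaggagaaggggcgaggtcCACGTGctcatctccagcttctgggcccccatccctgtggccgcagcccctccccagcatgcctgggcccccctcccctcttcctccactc

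Whole-cell RNA was measured at 4602278 to 6680919 reads on genes in the control libraries and 9433193 to 19856032 in the KD libraries, so depth differed with the group. The targeted gene was low in every KD library: Ssrp1 had 261, 230, 223 and 226 library-size scaled reads in the control libraries (given throughout in the order of replicates 1 to 4) and 24.1, 26.4, 24.9 and 28.9 in the KD libraries, a log2 fold change of -3.15 (SE 0.07, limma adjusted p = 1.18e-22). Supt16 RNA was higher in the KD, at 504 ± 20.2 against 319 ± 22 (SD, n = 4 each), a log2 fold change of 0.66 (SE 0.06, limma adjusted p = 5.24e-11) that is under the fold threshold. Among 8 stem cell markers 6 passed both thresholds upwards, and their summed values were 1619 to 1738 in the control and 4667 to 5154 in the KD libraries. Markers of other cell types passed downwards in 3 of the 6 neural genes with a value, 4 of 5 for mesoderm and endoderm, 3 of 4 for endothelium and 3 of 5 for fibroblast, and upwards in 1 neural gene (Tubb3) and 1 endothelial gene (Pecam1). Of all genes, 8.07% passed both thresholds higher and 20.6% lower in the KD. Among genes in the lowest of 4 classes of control level, 19.4% to 74% passed lower, a share that rose with exon length. Markers with no value listed included Dcx, T and Foxa2. The part of these shifts in the Notch results was not tested. In bulk RNA, fewer cells of a type and less RNA per cell cannot be told apart.

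The comparison of KD with control asks which genes depend on FACT in mESCs. Of the 9 Notch pathway genes with a value, Notch3, Dll1 and Hey1 fell beyond both thresholds of the study, an absolute log2 fold change above 1 and a limma adjusted p (Benjamini-Hochberg over all genes) below 0.01, and none rose. Of all genes, 28.6% passed both thresholds, 20.6% lower and 8.07% higher in the KD. By adjusted p alone 8 of the 9 passed, beside 72.8% of all genes, of which 7 were lower and 1, Hes1, was higher, beside 37.3% and 35.4% of all genes. The KD and control libraries did not overlap in the same 8 genes, and 73.3% of all genes were without overlap, 37.5% lower and 35.8% higher in the KD. The median log2 fold change was -0.90 over the 9 genes and -0.03 over all genes. All these values are on the log2(value + 0.5) scale, which understates the change of low genes.

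**Figure D1:**
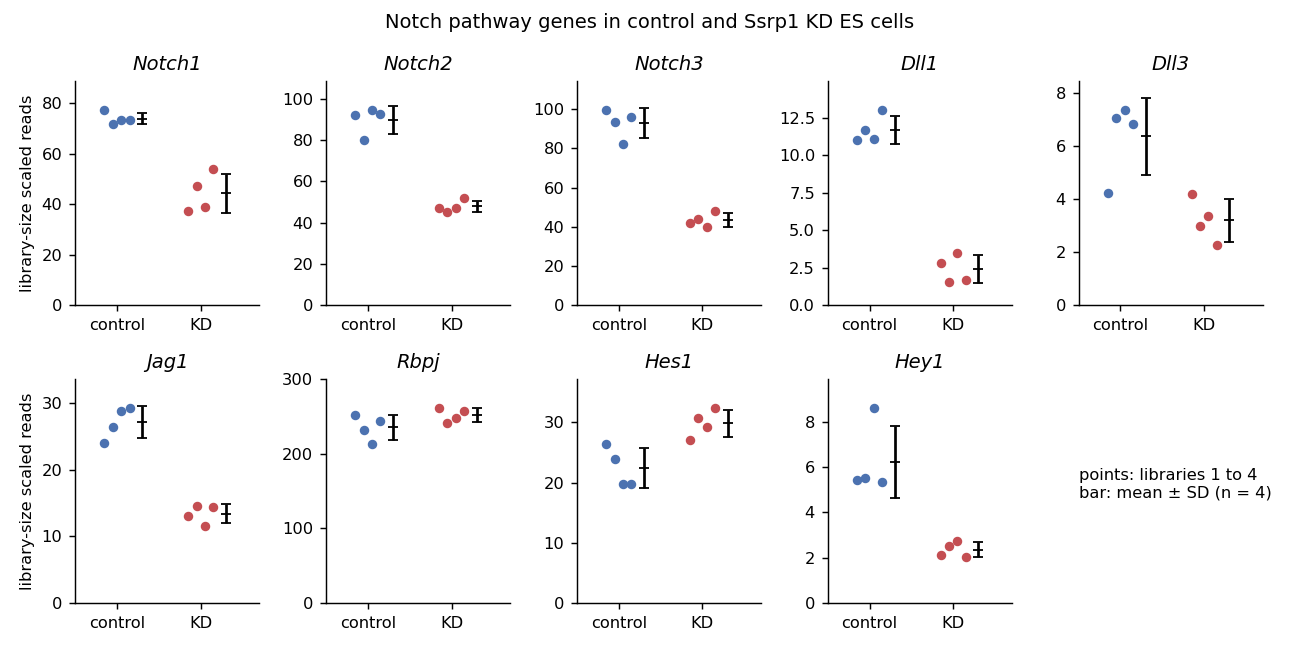
Library-size scaled reads (vertical axes, from 0, a scale of its own for each gene) of 9 Notch pathway genes in 4 control (blue) and 4 KD (red) libraries. Each point is a library and the black bar is the mean with its SD. KD points lie below all control points in 7 panels, above them in the Hes1 panel, and among them in the Rbpj panel.

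The receptors moved in the same direction. Notch1, a receptor required for early neural and vascular development, had 77.3, 71.8, 73.5 and 73.4 library-size scaled reads in the control and 37.3, 47.1, 39 and 54 in the KD libraries. Every KD library lay below every control library, with the KD libraries more widely spread. Its log2 fold change was -0.75 (SE 0.09, limma adjusted p = 1.05e-08), which is under the fold threshold. Notch2, a receptor close to Notch1 in structure, had 92.2, 79.9, 94.4 and 92.6 in the control and 47.3, 45, 47.3 and 51.7 in the KD libraries. Control replicate 2 was the lowest of its group and still far above the KD libraries. The log2 fold change of Notch2 was -0.90 (SE 0.07, limma adjusted p = 3.45e-12), also under the fold threshold.

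Notch3, best known as the receptor of vascular smooth muscle, had 99.5, 93.6, 82.2 and 96.3 library-size scaled reads in the control and 42.1, 44.1, 40 and 48.3 in the KD libraries. The groups stood well apart, and Notch3 was the only receptor of the 3 to pass both thresholds, at a log2 fold change of -1.08 (SE 0.07, limma adjusted p = 2.32e-13). Its fold change was close to the threshold, as were those of Notch2 and Jag1 on the other side of it, and these receptors were not tested against each other. Exons of Notch1 shared 1002 bp with the gene 0610009E02Rik and exons of Notch3 shared 488 bp with Gm17276, both on the other strand. The library kit keeps strand, but whether counting used strand was not found in the labels or methods, so reads of these pairs may not be separable.

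The ligands were lower in the KD as well, and Dll1 had the largest change of all 9 genes. Dll1, the Delta ligand that marks cells leaving the progenitor state, had 11, 11.7, 11.1 and 13 library-size scaled reads in the control and 2.84, 1.58, 3.5 and 1.68 in the KD libraries. Every control library was far above every KD library. Its log2 fold change was -2.13 (SE 0.20, limma adjusted p = 2.3e-10), a level 4.37-fold lower on the fitted scale. Of all genes, 4.99% had a lower log2 fold change than Dll1. The value rests on 62 to 95 reads per control library and 23 to 54 per KD library.

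Jag1, a Jagged ligand, had 24.1, 26.5, 28.9 and 29.3 library-size scaled reads in the control and 13.1, 14.6, 11.5 and 14.4 in the KD libraries. There was no overlap, and the log2 fold change of -0.99 (SE 0.11, limma adjusted p = 2.51e-09) lay just inside the fold threshold. Dll3, a Delta family protein that acts mainly inside the cell and dampens signalling, had 4.22, 7.06, 7.35 and 6.84 in the control and 4.2, 2.99, 3.37 and 2.26 in the KD libraries. Control replicate 1 all but met KD replicate 1, while the other control libraries stood higher. The log2 fold change of Dll3 was -0.89 (SE 0.21, limma adjusted p = 0.000418), under the fold threshold.

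Rbpj, the DNA-binding partner of the cleaved receptors, did not pass the test. It had 252, 231, 213 and 244 library-size scaled reads in the control and 261, 241, 247 and 257 in the KD libraries, and the groups overlapped. Its log2 fold change was 0.10 (SE 0.06, limma adjusted p = 0.113; exact two-sided permutation test, p = 0.143, n = 4 each). It had the smallest change of the 9 genes.

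The target repressors did not move together. Hes1, which in many tissues answers to Notch and also to other signals, had 26.4, 23.9, 19.7 and 19.7 library-size scaled reads in the control and 27.1, 30.8, 29.2 and 32.4 in the KD libraries. The lowest KD library was just above the highest control library. Its log2 fold change was 0.41 (SE 0.10, limma adjusted p = 0.000539), under the fold threshold. Hey1, a related repressor prominent in vessels and heart, had 5.44, 5.51, 8.61 and 5.33 in the control and 2.1, 2.52, 2.72 and 2.03 in the KD libraries. Control replicate 3 stood above the other control libraries, and all of them were above the KD libraries. Hey1 fell by 1.22 on the log2 scale (SE 0.21, limma adjusted p = 6.23e-06). Hes5, the repressor most closely tied to Notch in neural progenitors, had no whole-cell value and was not tested. For each of the 8 genes without overlap, the exact two-sided permutation test gave p = 0.0286, the smallest that 4 against 4 libraries allow.

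How these changes stand depends on what the libraries were scaled to. The library-size scaled values summed to 825584 to 909417 per control library and 1137293 to 1182584 per KD library. They were therefore not scaled to equal totals over these genes, and a scaling by equal totals alone was not fitted. Under the deposited spike-in scaling the median log2 fold change of all genes was 0.95, so each gene is given with its distance from that median. Dll1 was lower under that scaling too, at -1.21 (SE 0.30, limma adjusted p = 0.000145), a distance of -2.16 from the median. The receptors were at 0.27 (Notch1), 0.12 (Notch2) and -0.06 (Notch3), with distances of -0.68, -0.83 and -1.02 and adjusted p values from 0.394 to 0.849. Each had an SE of 0.29, against 0.07 to 0.09 with library sizes. Spike-in scaled values summed to 503414 to 782336 per control library. In the KD they summed to 1073296 in replicate 1 and 1710671 to 2155996 in the others. The source of this spread was not tested, and not passing here does not show an unchanged level. Jag1 was at 0.01, Dll3 at 0.03 and Hey1 at -0.31, at distances of -0.95, -0.93 and -1.27, and none of them passed the test. Rbpj and Hes1 passed both thresholds upwards, at 1.12 and 1.42 (limma adjusted p = 0.0002 and 2.46e-06), at distances of 0.17 and 0.46. Of the 9 genes, 3 passed both thresholds under either scaling, 3 lower and none higher with library sizes, and 1 lower and 2 higher with spike-ins, where 55.1% of all genes passed, 7.03% lower and 48.1% higher. Of the 9, only Dll1 passed both thresholds downwards under both scalings. Notch3 and Hey1 were also below 0 under both, but did not pass with spike-ins.

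Log2 fold changes also varied with exon length and level, from a median of -1.46 over genes in the longest of 4 classes of exon length and the lowest of 4 classes of control level to 0.82 in the shortest and highest classes, and depth moved with the group, so the fit was repeated after each library had been corrected for a loess trend on exon length and control level. Dll1 was then the only one of the 9 to pass both thresholds, at -1.26 (SE 0.19, limma adjusted p = 2.27e-06), beside 18% of all genes, 9.95% lower and 8.06% higher. Notch3 was at -0.84, Notch2 at -0.38, Jag1 at -0.34 and Notch1 at -0.26, with adjusted p values of 3.47e-12, 1.45e-06, 0.0023 and 0.00354, and all were lower in the KD. Hey1 was at -0.41, Dll3 at -0.10, Hes1 at 0.16 and Rbpj at -0.08, with adjusted p values from 0.0458 to 0.63. Quantile normalisation, in turn, put Dll3 at 0.19 and Hey1 at -0.08, neither of which passed the test (limma adjusted p = 0.383 and 0.712). Under it Notch1 at -1.01, Notch2 at -1.18, Notch3 at -1.35 and Dll1 at -1.26 passed both thresholds downwards. Of all 15384 genes, 1656 passed lower and 1518 higher. Jag1 was at -0.89, Hes1 at 0.41 and Rbpj at -0.46 (limma adjusted p = 6.25e-07, 0.00434 and 1.34e-08).

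**Figure D2:**
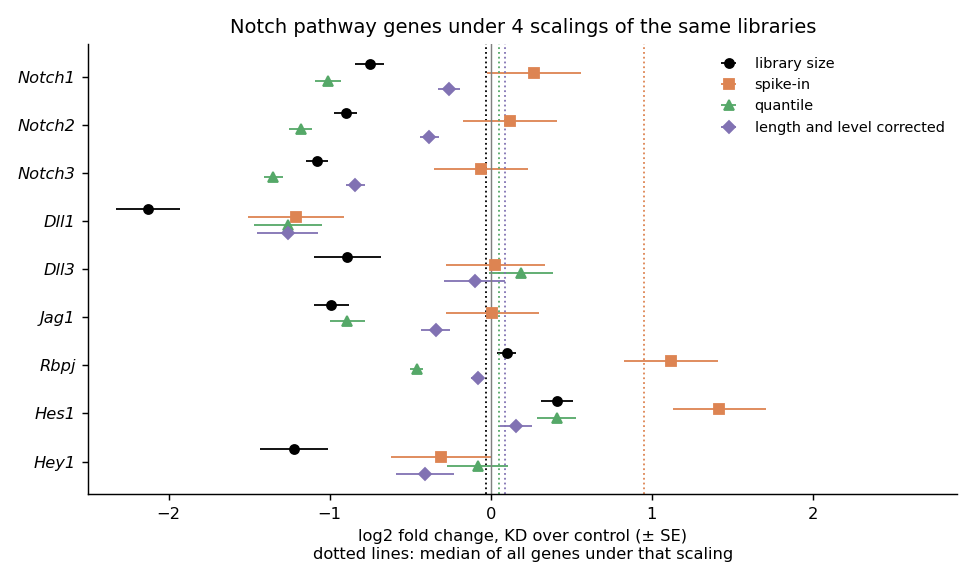
Log2 fold change of KD over control (horizontal axis, bars are SE) for 9 Notch pathway genes under 4 scalings of the same 8 libraries, with a dotted line at the median of all genes under each. Dll1 is below 0 under all 4, at -2.13 with library sizes and -1.21 with spike-ins, and the spike-in median lies at 0.95.

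Per kilobase of exon, which allows levels to be compared between genes, Rbpj stood highest in the control at 41.1 ± 3 library-size scaled reads per kb (SD, n = 4), followed by Hes1 at 15.5 ± 2.28 and Notch3 at 11.7 ± 0.95. Notch2 at 8.54 ± 0.634 and Notch1 at 7.8 ± 0.247 overlapped in range. Jag1 was at 4.95 ± 0.436, apart from Notch1 above it and Dll1 below it. Dll1 at 3.42 ± 0.264, Dll3 at 2.94 ± 0.669 and Hey1 at 2.82 ± 0.722 overlapped with their neighbours. In the KD, Rbpj at 44 ± 1.55 and Hes1 at 20.6 ± 1.56 kept the first places, and the receptors overlapped with their neighbours, Notch3 at 5.5 ± 0.444, Notch1 at 4.67 ± 0.811 and Notch2 at 4.55 ± 0.266. Dll1 took the last place in the KD at 0.7 ± 0.271, with a range that overlapped that of Hey1 at 1.06 ± 0.151. In the control the receptors stood above the ligands and in the KD they still did. The authors' mean log2 expression is another measure, not divided by exon length, so its order of genes can differ from that per kb. Over the libraries of their KD table, which lists 14340 genes, Rbpj was at 7.51, Notch3 at 6.82 and Dll1 at 2.01. The median over all genes was 4.62. In their table of NPCs and mESCs, where the mean takes both cell types together, Rbpj was at 7.56, Notch3 at 7.19 and Dll1 at 3.00. The median over its 14401 genes was 4.51. Of the 10 genes, 9 were listed in each table, Hes5 in neither.

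Chromatin RNA was sampled thinly. The 2 libraries held 3441643 and 3393923 counts on genes, of which 5.56% and 9.35% fell on protein-coding genes, and the 10 Notch pathway genes together had 154 and 225 counts. Hes1 had 32 counts in library 1 (exact 95% Poisson interval 21.9 to 45.2) and 25 in library 2 (16.2 to 36.9), and per kilobase of exon it was the highest of the 10, at 6.41 and 5.08 counts per 1000000 counts on genes (CPM). Rbpj followed with 34 and 66 counts, or 1.73 and 3.41 CPM per kb. Hes1 thus stood above Rbpj in both chromatin RNA libraries, whereas Rbpj stood above Hes1 in all whole-cell libraries. These values were not tested against each other, and the intervals cover counting error only. Over all genes the 2 chromatin RNA libraries differed by more than counting error (chi-square per degree of freedom 18.4).

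Notch1 had 32 and 47 counts in chromatin RNA, Notch2 18 and 38, and Notch3 12 and 13. Per kilobase Notch3 was the lowest receptor in both libraries, at 0.439 and 0.482 CPM per kb, whereas it was the highest receptor in control whole-cell RNA. In library 1 it lay beside Notch2 at 0.498, a gap within counting error. Jag1 had 11 and 27 counts. Dll1 had 3 and 6, Dll3 6 and 2, and Hey1 5 and 0, where the exact 95% Poisson interval of the count of 0 reaches 3.69. Hes5 had 1 count in each library, which is within the counting error of both no transcript and several. No order among Dll1, Dll3, Hey1 and Hes5 can be read at this depth.

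**Figure D3:**
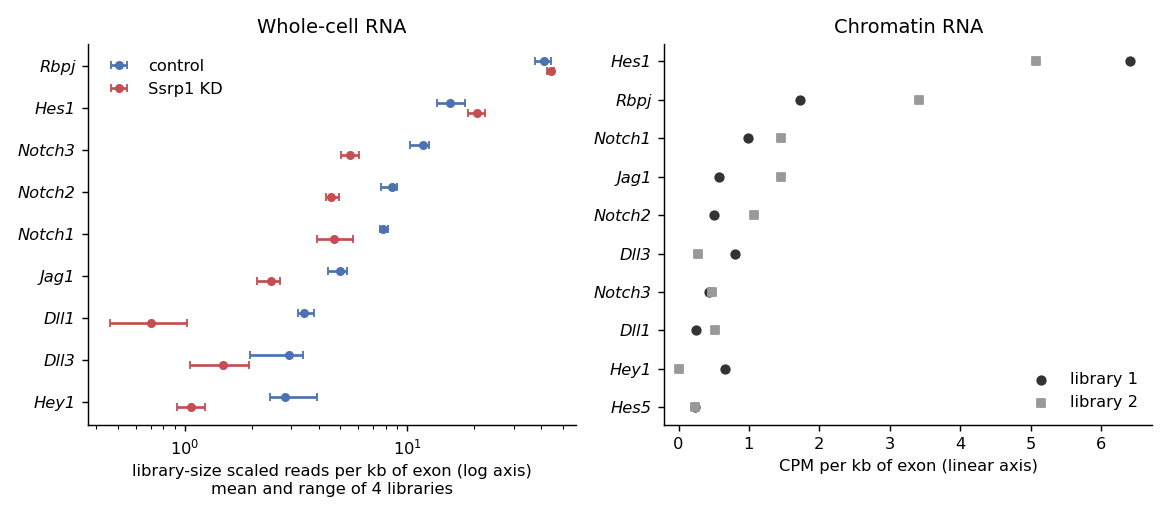
Left, whole-cell RNA as library-size scaled reads per kb of exon (log axis), mean and range of 4 control (blue) and 4 KD (red) libraries. Right, chromatin RNA as CPM per kb of exon (linear axis) in libraries 1 and 2. Rbpj is first on the left, at 41.1 in the control, and Hes1 is first on the right, at 6.41 and 5.08.

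SSRP1 peaks were assigned to 7 of the 10 Notch pathway genes and SUPT16 peaks to 3. Of the 9 genes with a whole-cell value, 6 had an SSRP1 peak and 3 a SUPT16 peak, beside 36% and 18.6% of all 15384 genes with a value. The peaks come without heights or values per replicate, so no error can be given and no test was made. Within 1000 bp of the annotated start, SSRP1 peaks lay at Notch2, Notch3, Rbpj, Hes1 and Hes5, and SUPT16 peaks at Notch3, Rbpj and Hey1. Of the 15384 genes with a value, which leave out Hes5, 24.4% had an SSRP1 peak and 14.4% a SUPT16 peak in that window. Dll1 and Jag1 had no peak of either subunit. Whether peaks go with changes in the KD was not tested.

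Rbpj carried the most peaks, 9 of SSRP1 and 4 of SUPT16, and 0.332% of all genes with a value had 9 or more SSRP1 peaks. Its longest, an SSRP1 peak of 1666 bp at chr5:53588949-53590614, covered the start at position 53590215 and reached over the bases printed for Rbpj. A SUPT16 peak of 420 bp, 245 bp upstream of the start, lay wholly inside it, and another that began further upstream overlapped it by 112 bp. The other 8 SSRP1 peaks lay outside the gene, 6755 to 105539 bp from its start, and 3 of them were downstream of it. These remote peaks carry the name Rbpj only because it was the nearest gene.

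Hes1 had 6 SSRP1 peaks and none of SUPT16. The longest of them, 1176 bp at chr16:30063265-30064440, ended 917 bp upstream of the start, and another of 392 bp lay inside the gene, 1142 bp downstream of the start, with 19 bp in exons. The other 4 lay outside the gene, from 2583 bp upstream to 37206 bp downstream. Hes5 had 1 SSRP1 peak of 294 bp at chr4:154961717-154962010, 794 bp downstream of its start and wholly exonic, although 1 chromatin RNA count per library was all the transcript seen. Hey1 had no SSRP1 peak and 1 SUPT16 peak of 280 bp at chr3:8667051-8667330, which ended 13 bp upstream of the start.

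Among the receptors, Notch2 had 1 SSRP1 peak, 1274 bp at chr3:98013133-98014406, which covered the start and the bases printed for Notch2. Notch3 had 4 SSRP1 peaks, of which that of 490 bp at chr17:32165757-32166246 held the SUPT16 peak printed above in full, 606 bp downstream of the start. The others lay inside Notch3 at 4428 and 43922 bp downstream of the start, and beyond its end. Notch1 had 3 SSRP1 peaks of 294 bp each, 1 upstream of the start by 2925 bp, 1 downstream by 2172 bp outside exons, and 1 wholly exonic near the far end of the gene. Dll3 had 1 SSRP1 peak of 294 bp, 2717 bp downstream of its start, with 176 bp in exons. The subunits shared sequence only at Notch3 and Rbpj among the 10 genes.

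**Figure D4:**
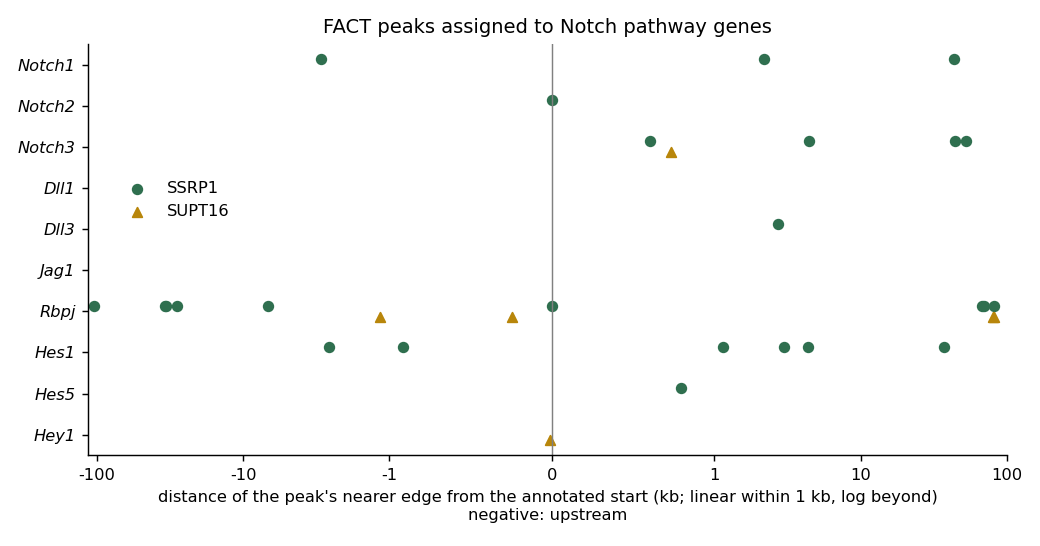
Distance of each FACT peak from the annotated start of the gene it was assigned to (horizontal axis in kb, linear within 1 kb and logarithmic beyond, upstream negative, 0 where the peak covers the start), for SSRP1 (circles) and SUPT16 (triangles). Rbpj has 9 circles and 4 triangles, and the rows of Dll1 and Jag1 are empty.

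A further 49 genes of the pathway were listed by role, and 43 of them had a whole-cell value. Beyond both thresholds 14 fell and none rose with library-size scaling, a share to be read beside 20.6% lower and 8.07% higher among all genes, and the median log2 fold change was -0.42 over the list and -0.03 over all genes. With spike-in scaling 4 were lower and 12 higher, beside 7.03% lower and 48.1% higher among all genes, and 16 of the 43 changed sign. The median of the list was 0.57 under that scaling, which is at -0.39 from the median of all genes. By adjusted p alone, 23 were lower and 7 higher with library sizes, beside 37.3% lower and 35.4% higher among all genes.

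Among the co-activators that sit on the Notch and Rbpj complex, the scaffold proteins Maml3 and Maml2 fell by 3.02 (SE 0.20) and 2.36 (SE 0.23) on the log2 scale, the first being the largest change of the list, while Maml1 was at -0.94 and the acetyltransferase Ep300 at -0.86, both under the fold threshold. Snw1, a splicing factor that also binds this complex, was at 0.79, under the threshold on the other side. Of the co-repressors that Rbpj holds without Notch, Spen was at -0.89 and the deacetylase Hdac1 at 0.65.

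Of the other ligands, Dlk1, a protein related to Delta that lacks the region binding Notch, fell by 2.81 (SE 0.21), and Jag2 fell by 1.90 (SE 0.07), beside -0.99 for Jag1. Notch4, the fourth receptor, was at -0.06 (SE 0.11) with an adjusted p of 0.659 from limma. No whole-cell value was listed for Dll4, Dlk2, Hes2, Hes3, Hes7 and Heyl. Hey2 fell by 1.60 (SE 0.25), as its relative Hey1 did, and Hes6 was at 0.00 (SE 0.12).

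Genes that prepare and cut the receptors split. Furin, the protease of the first cut, fell by 1.67 (SE 0.13), and of the γ-secretase subunits Aph1c, Aph1b and Psen2 fell by 1.65, 1.58 and 1.01, while Aph1a was at 0.20 and Psenen at 0.01. Aph1b and Aph1c are near-identical copies, so the division of reads between them is uncertain. Adam17, a shedding protease, was at 0.81 and Adam10, the main one for Notch, at -0.25. Lfng, which adds sugars that tune ligand choice, fell by 1.45 (SE 0.21), and Pofut1, which adds the fucose it builds on, was at -0.97. For the ubiquitin ligases of the ligands, Neurl1b fell by 1.66 (SE 0.17) and Mib2 was at 0.68. Among inhibitors and turnover genes, Dtx4, a Deltex family ligase, fell by 2.61 (SE 0.21) and Nrarp, itself a feedback target of Notch, fell by 1.24 (SE 0.13).

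**Figure D5:**
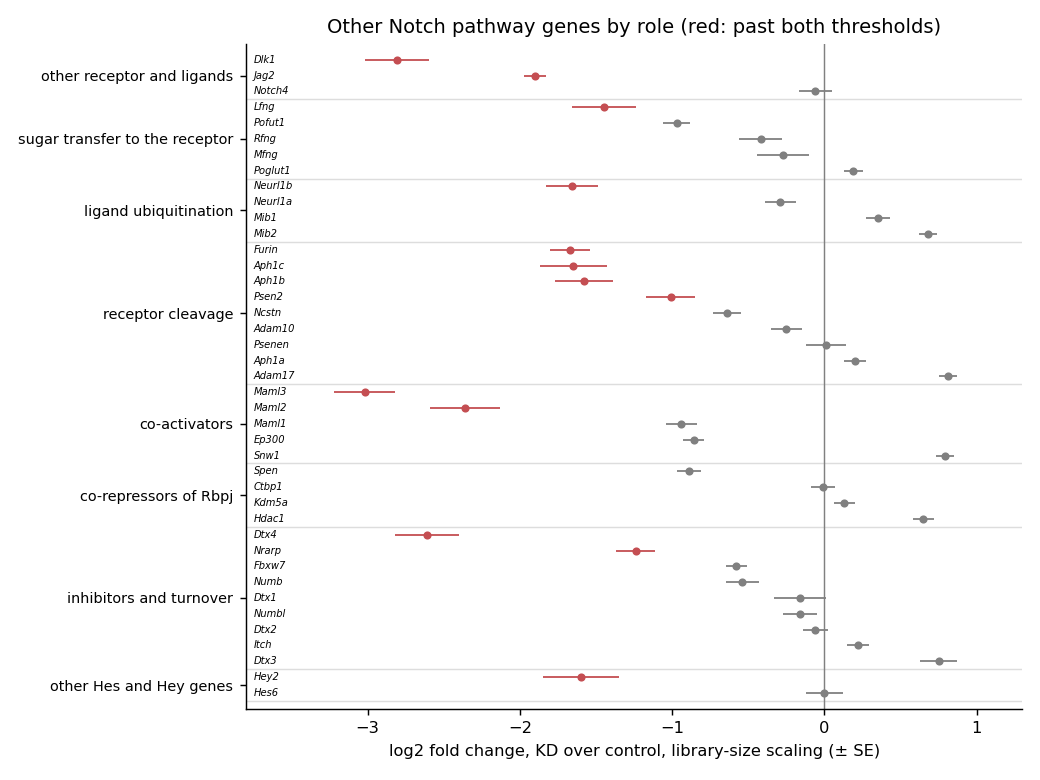
Log2 fold change of KD over control with library-size scaling (horizontal axis, bars are SE) for 41 of the 43 other Notch pathway genes with a value, grouped by role. The 13 of them past both thresholds are in red and all lie below 0, from Maml3 at -3.02 to Psen2 at -1.01.

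The 5 listed proneural genes that Hes proteins restrain had no whole-cell value, so 0 of 5 could be tested. The genes whose values ran most like those of Dll1 over the 8 libraries were Kif21a (Pearson r = 0.995), Prkar2b (0.995) and Zfp11 (0.992), and those most like Rbpj were Spop (0.966), Taco1 (0.965) and Ankhd1 (0.964), of all 15384 genes. For Dll1 these correlations follow the step between groups, since all 8 libraries share that split. For both genes they are the highest of 15384 correlations over only 8 libraries. High values also arise by chance there, and none was tested.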

How the data were processed

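The genes and lists were chosen with earlier results of these data known. The signal per library, reads on genes under a library-size or a spike-in scaling, was deposited by the authors, who aligned reads to mm10 with STAR, counted with featureCounts and used edgeR and limma, per the labels and methods. The methods name TMM normalisation in edgeR, and the library-size values do not sum to equal totals. Each count of chromatin RNA was deposited raw, and the submitters' processing notes name STAR 2.4.1b and featureCounts for it. PePr was used for peak calling, and ChIP-Enrich gave each peak to its nearest gene. Of the authors' comparison tables only the log2 mean expression, computed by the authors with limma, was used. Their fold changes, test statistics, p-values and exon usage were not.

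Whole reads were recovered from the steps between values (100% within 0.1 of a whole read). The test was limma 3.58.1 in R 4.3.3 with a mean-variance trend and Benjamini-Hochberg adjustment, applied to log2(value + 0.5) of 15384 genes in 4 control and 4 KD libraries. This unit replaced the raw counts that edgeR would need. Alternatives were pseudocounts of 0.1 and 2, a filter at 2 in at least 4 libraries, TMM, spike-in and quantile scaling, edgeR 4.0.16, DESeq2 1.42.0, a loess correction, blocking on replicate number and leaving out single libraries. The fits were tested on simulated data with 200 changed genes. Those data held no shift of all genes and no trend with exon length or level, so they do not cover these features. Libraries differed beyond sampling noise. Chi-square per degree of freedom was 1.88 to 6.62 between whole-cell replicates and 18.4 between the 2 chromatin RNA libraries. Starts and exons were those of the annotation in the chromatin RNA table, and a peak needed 1 bp of overlap.

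All 10 genes were named, and of the other 49 every gene past both thresholds and the pair with the largest changes in each role, further genes being added in the text for context after their values were seen, and some listed genes, which stay in the counts, are not reported here. The 3 genes most like the genes with the largest and the smallest change were named by Pearson correlation. MNase-seq, ATAC-seq and NET-seq were not analysed here.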

Additional observations from a re-analysis of the deposited data

Results flagged for a closer look

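Among 58 groups of 4 libraries, those of the named genes, 8 held a library whose gap to its neighbour exceeded, as a share of the range of the group, Dixon's 95% critical value, which chance gives in about 1 in 20 groups. Control replicate 2 was low for Notch2, at 79.9 against 92.2 to 94.4 in the others (gap 0.848 of the range). Control replicate 1 was low for Dll3, at 4.22 against 6.84 to 7.35 (0.835), and for Maml2, at 5.58 against 9.3 to 9.69 (0.906). Control replicate 3 was high for Hey1, at 8.61 against 5.33 to 5.51 (0.947), and for Dlk1, at 13.5 against 9.12 to 9.81 (0.841). KD replicate 2 was high for Furin, at 7.5 against 6.06 to 6.28 (0.844), and for Dtx4, at 2.64 against 1.17 to 1.39 (0.847), and KD replicate 3 was low for Neurl1b, at 2.46 against 3.75 to 3.88 (0.907). Without control replicate 1, Dll3 passed both thresholds at -1.06 (limma adjusted p = 1.97e-05).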

How the results depend on the processing

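Over 162 alternative values of the 9 genes, 136 kept direction and side of the thresholds, 6 no longer passed, 13 newly passed and 7 turned. The filter and the replicate block cannot move a fold change, and TMM gave almost the same values as the main fit. The count of unchanged values therefore overstates how stable the results are. Turned values were, with spike-ins, Notch1 at 0.27, Notch2 at 0.12, Dll3 at 0.03 and Jag1 at 0.01, with quantiles Dll3 at 0.19 and Rbpj at -0.46, and with the length and level correction Rbpj at -0.08. The 3 genes past both thresholds became 5 with edgeR on recovered reads, all lower, 1 with the length and level correction and 8 by adjusted p alone. The 14 of the wider list became 8 with the correction (2 higher, 6 lower) and 30 by adjusted p alone. Of all genes, 18% passed with the correction (8.06% higher, 9.95% lower) and 72.8% by adjusted p alone. Leaving out 1 library gave 3 to 5 genes, with 5 without control replicate 1, when Jag1 and Dll3 joined, and 13 to 15 of the wider list. Hey1 no longer passed with a pseudocount of 2 (-0.91). Ssrp1 stayed between -3.62 and -2.13. The median level per kb of the 9 genes was 7.8 with library sizes and 5.53 with spike-ins, and that of chromatin RNA 0.661 CPM per kb and 0.852 when only genes with a whole-cell value made up the total. SUPT16 peaks fell to 1 gene when they had to lie inside it. Replicate numbers did not pair the libraries, since correlations of same-numbered deviations ran from -0.057 to 0.018 and 0 of 4 numbers correlated best with their own, and a replicate block left the counts at 3 and 14. The cause of these differences was not tested. Depth limits Dll1, Dll3 and Hey1 most.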
